A study of Mus musculus with 9 samples.

Results

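Glycolysis and hypoxia response genes were followed as 33 listed genes through 3 groups of mouse macrophages profiled on Agilent arrays that carry a single dye, Cy3. The list was chosen by gene name: 18 genes of glucose entry, glycolysis and lactate handling, 3 genes of oxygen sensing and 12 genes known to be induced by hypoxia. Spots carrying the listed names were present for 32 of the 33 genes, and all 32 entered the test, out of 16464 genes tested. Hig2 (now Hilpda) had no spot under either name and is described apart. All samples came from C57BL/6J mice. The control group was 3 samples of peritoneal exudate macrophages (PECs), and the other groups were 3 samples of F4/80high and 3 samples of F4/80low tumour-associated macrophages (TAMs) from a fibrosarcoma. Per the labels the TAMs were split into F4/80high and F4/80low alone; no other sort marker, age, sex or number of animals is given. TAMs and PECs differ both in the tumour and in the tissue of origin, and these cannot be told apart. The series calls the samples biological replicates without saying that each came from a separate animal, so p-values speak only of how these samples varied, and part of that variation can be technical.

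Glycolysis splits glucose into pyruvate. Glucose enters through a transporter and is trapped by a hexokinase, ATP is spent in the preparatory steps, ATP and NADH are gained in the payoff steps, and lactate dehydrogenase with a lactate exporter regenerates NAD+. Hypoxia-inducible factor (HIF) turns many of these genes on when oxygen is low, because prolyl hydroxylases, which mark its alpha subunit for destruction, need oxygen. In macrophages the same factor is also active in inflammatory activation, and tumour-associated macrophages are known to be found in poorly perfused areas.

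Levels are log2 spot intensities minus the 75th percentile of the same array, so a level of 0 is that percentile and a difference of 1 is a doubling. They allow a gene to be compared between arrays, not with another gene. A gene passed the threshold when limma's Benjamini-Hochberg adjusted p, taken over all 16464 genes, was under 0.05. Signal stood well above background for 36.1% to 38.3% of the non-control spots of each array, and no spot was saturated. PEC replicate 1 shares slide 1 with all 6 TAM arrays, and PEC replicates 2 and 3 lie on slide 2. Values given for slide 1 alone rest on that lone PEC array, which the fit assumes to vary like the arrays of the other groups.

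Macrophage markers were present in all groups, but the F4/80low arrays also carried markers of other cells. All 8 macrophage markers were well above background on every PEC and F4/80high array and 7 of 8 on the F4/80low arrays, where Mertk was above background on 0 of 3 arrays. Adgre1, the gene of the sort marker itself, had a mean level of 5.88 in PECs, 5.94 in the F4/80high subset and 2.89 in the F4/80low subset. Of 11 neutrophil markers with spots, 6 to 7 were above background in PECs, 7 to 9 in F4/80high and 11 in F4/80low TAMs, and their summed level was 6.90 to 7.28, 7.81 to 8.36 and 10.93 to 13.01 in turn. The highest value was that of F4/80low replicate 1. Of 9 T and NK cell markers, 3 were above background on every PEC and F4/80high array and 7 to 8 on the F4/80low arrays. Fibroblast markers, which a fibrosarcoma also expresses, had a like summed level in the groups, at 2.02 to 3.32, 2.11 to 3.41 and 2.29 to 3.34. Single markers of this list differed in both directions. Col3a1 was above background on 0 of 3 PEC arrays and on 3 of 3 arrays of each TAM subset. Col1a1 was above it on 3 of 3 PEC, 0 of 3 F4/80high and 1 of 3 F4/80low arrays. The like sum therefore does not show equal fibroblast or tumour RNA. At most 2 of the 4 B cell, 4 endothelial, 4 erythroid and 4 mast cell markers, and at most 1 of the 3 mesothelial markers, were above background on any array. The mesothelial marker Msln was above background on 3 of 3 F4/80low arrays (mean level 0.89) and on 0 of 3 arrays of each other group. Mast cell markers above background were 0 to 1 in PECs, 1 in F4/80high and 2 in F4/80low TAMs. In such bulk samples, fewer cells of a type and less RNA per cell cannot be told apart, and the part of these other cells in the results on F4/80low TAMs was not tested.

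The promoters of the members were searched for the core letters of a hypoxia response element, because this is the sequence HIF is known to bind. RefSeq promoters of build GRCm38.p6 were matched for 32 of the 33 members; Ndrg1 had no entry. The 250 bases before each start were searched for ACGTG and GCGTG on both strands. A CACGTG matches on each strand and counts as 2 positions. Either motif occurred in 37 of 47 member promoters (78.7%), from 30 members, against 12679 of 32851 promoters of the whole table (38.6%). The stricter ACGTG occurred in 24 member promoters (51.1%) against 16.6% of all. Both motifs contain CG, and the median GC content was 62.8% in the member promoters and 52.4% in all, so base composition moved with the share; its part was not tested. The sequences below are shown for 4 members that passed the threshold upward in at least 1 TAM subset against PECs (Ddit4, Bnip3, Adm and Egln3) and for 2 that passed it downward (Slc2a1 and Pgam1), to show that such letters stand before genes of both kinds. Each is the strand of the gene, 5′ to 3′, ending at the base before the start, with matches on either strand in capitals (a match on the other strand reads CACGT or CACGC).
Ddit4, chr10:59951771-59952020, minus strand: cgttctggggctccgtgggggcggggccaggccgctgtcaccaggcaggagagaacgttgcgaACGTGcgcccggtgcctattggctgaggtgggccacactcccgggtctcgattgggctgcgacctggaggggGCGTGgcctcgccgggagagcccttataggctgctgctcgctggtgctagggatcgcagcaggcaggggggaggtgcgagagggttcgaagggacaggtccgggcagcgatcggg
Bnip3, chr7:138909507-138909756, minus strand: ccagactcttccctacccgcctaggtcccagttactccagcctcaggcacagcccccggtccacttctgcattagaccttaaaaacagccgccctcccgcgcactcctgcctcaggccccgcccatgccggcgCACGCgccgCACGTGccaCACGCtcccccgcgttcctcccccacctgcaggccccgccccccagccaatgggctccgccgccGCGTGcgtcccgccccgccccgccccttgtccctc
Adm, chr7:110627407-110627656, plus strand: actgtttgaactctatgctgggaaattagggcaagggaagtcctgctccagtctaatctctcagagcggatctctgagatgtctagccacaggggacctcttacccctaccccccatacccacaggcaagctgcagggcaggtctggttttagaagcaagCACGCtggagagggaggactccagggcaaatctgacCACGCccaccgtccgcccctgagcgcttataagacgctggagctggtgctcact
Egln3, chr12:54203875-54204124, minus strand: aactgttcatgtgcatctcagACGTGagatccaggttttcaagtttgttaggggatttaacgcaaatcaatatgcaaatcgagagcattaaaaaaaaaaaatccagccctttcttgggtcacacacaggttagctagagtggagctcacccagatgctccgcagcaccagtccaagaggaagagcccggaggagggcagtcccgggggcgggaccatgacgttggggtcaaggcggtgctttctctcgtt
Slc2a1, chr4:119108495-119108744, plus strand: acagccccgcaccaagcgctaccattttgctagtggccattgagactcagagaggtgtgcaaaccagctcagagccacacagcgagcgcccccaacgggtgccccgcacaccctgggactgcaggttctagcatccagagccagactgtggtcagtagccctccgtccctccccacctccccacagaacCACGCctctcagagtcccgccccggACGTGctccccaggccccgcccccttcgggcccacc
Pgam1, chr19:41911621-41911870, plus strand: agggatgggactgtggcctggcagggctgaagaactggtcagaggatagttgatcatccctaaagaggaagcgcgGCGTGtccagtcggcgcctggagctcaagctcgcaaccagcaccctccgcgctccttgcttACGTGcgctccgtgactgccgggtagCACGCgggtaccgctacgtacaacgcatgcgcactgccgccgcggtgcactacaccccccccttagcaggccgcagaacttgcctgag
Bnip3 held 5 match positions in this window, Pgam1 3, Ddit4, Adm and Slc2a1 2 each, and Egln3 1. A match is only a description of these letters and does not show a bound site.

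In F4/80high TAMs against PECs, 7 of the 32 members were higher and 5 were lower. Those counts are 21.9% and 15.6% of the members, beside 25.0% higher and 28.0% lower among all genes tested. The median log2 difference was -0.26 over the members and 0.00 over all genes. In F4/80low TAMs against PECs, 7 members were higher and 4 lower, or 21.9% and 12.5%, beside 22.7% and 29.2% of all genes, with medians of -0.15 and -0.09. Between the TAM subsets, 4 members were higher and 4 lower in F4/80low than in F4/80high TAMs, 12.5% each, beside 14.0% and 18.6% of all genes, with medians of -0.02 and -0.08. As a whole, then, the list was called no more often than genes in general. The 18 glycolysis genes gave 2 higher (11.1%) and 5 lower (27.8%) in F4/80high TAMs and 0 higher and 4 lower (22.2%) in F4/80low TAMs against PECs, so their lower shares were at or under those of all genes. The 14 oxygen sensing and hypoxia genes gave 5 higher (35.7%) and 0 lower, and 7 higher (50%) and 0 lower. Both counts of higher genes include Adm, which met the background filter through the F4/80high arrays alone. At an unadjusted limma p under 0.05, the 0 glycolysis genes higher in F4/80low TAMs remained 0, and the hypoxia genes lower were 2 in the F4/80high subset and 0 in the F4/80low subset. Both comparisons use the same PEC arrays. The split depended on scaling: with each array scaled to its median instead, which put the median difference of all genes at -0.16, -0.57 and -0.40, the counts higher and lower were 4 and 6, 3 and 13, and 2 and 5 for the comparisons in the same order. With the percentile taken over probes above background on all arrays they were 7 and 5, 9 and 3, and 8 and 3. Median scaling ended the calls of Hk2, Bnip3 and Ero1l in F4/80high TAMs, of Bnip3, Egln3, Pdk1 and Kdm3a in F4/80low TAMs, and of Aldoa and Pdk1 between the subsets.

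**Figure D1:**
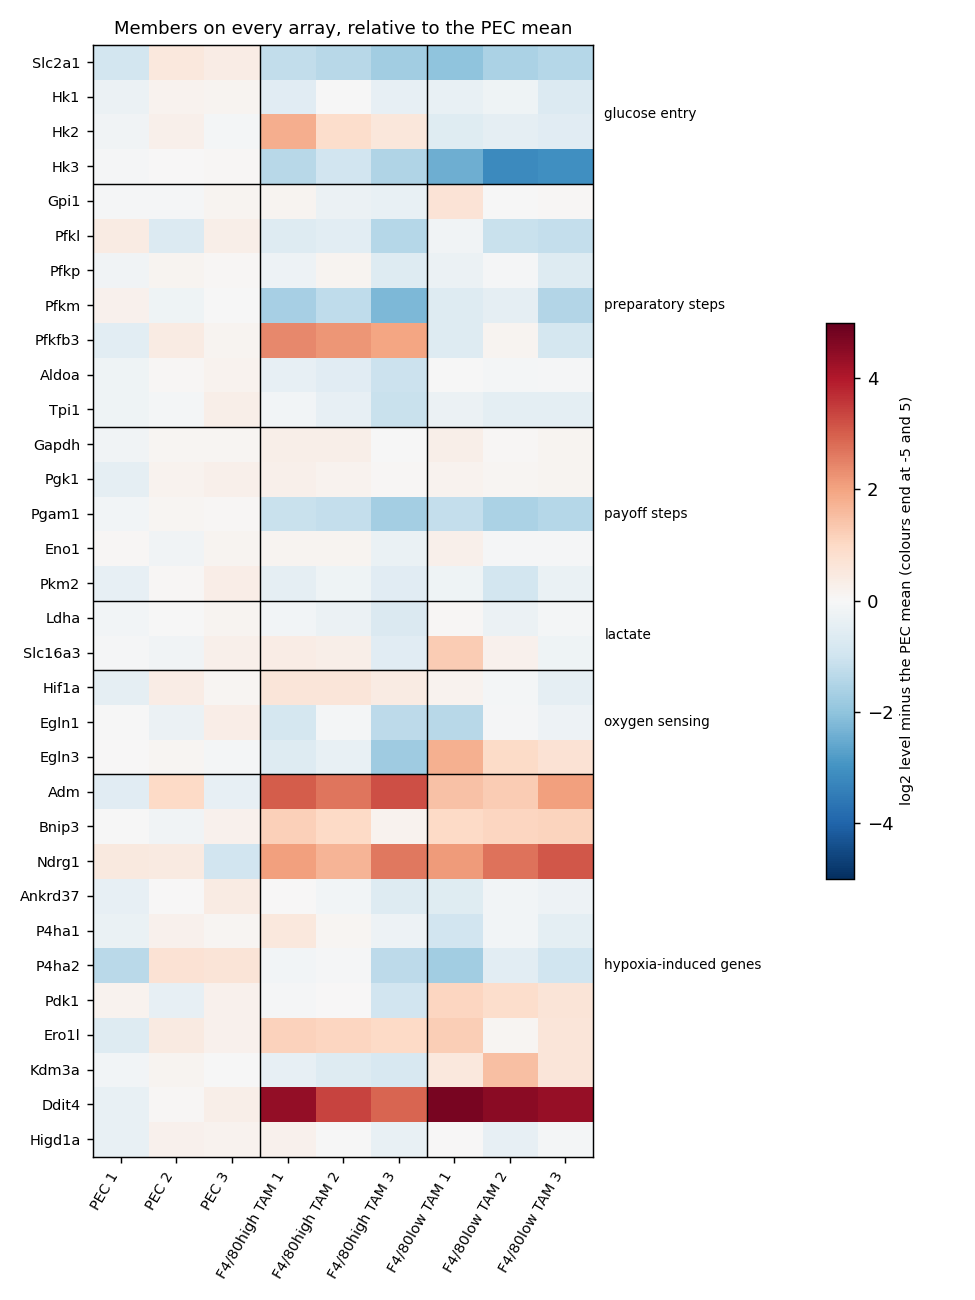
The log2 level of each of the 32 members on every array minus the mean of the 3 PEC arrays, with arrays in columns, genes in rows ordered by role, red for higher and blue for lower. Ddit4, Adm and Ndrg1 are red on all 6 TAM arrays, Slc2a1, Hk3 and Pgam1 are blue on all 6, and most enzymes between Gapdh and Ldha are close to white.

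Among the hypoxia-induced genes, Ddit4 had the largest rise in both TAM subsets by the fit, and Ndrg1 also rose. Adm was higher by the fit, with signal near background in PECs and F4/80low TAMs. Ddit4 encodes REDD1, an inhibitor of mTORC1 signalling that is induced by hypoxia and other stresses (probe at mm9 chr10:59412486-59412545). Its levels were -1.28, -0.84 and -0.59 in PECs, 3.48, 2.46 and 2.02 in the F4/80high subset and 3.84, 3.59 and 3.43 in the F4/80low subset. Every TAM array lay above every PEC array, and the TAM subsets overlapped. The log2 difference from PECs was 3.56 in F4/80high TAMs (SE 0.35, limma adjusted p = 3.94e-05), an 11.8-fold higher level, and 4.53 in F4/80low TAMs (adjusted p = 1.38e-05), a 23.0-fold higher level. With normexp background correction these differences from PECs were 2.38 and 3.17, and the deposited table also gave smaller ones. Both still passed, but the folds depend on the processing. Between the subsets the log2 difference was 0.97 (adjusted p = 0.0617), which did not pass. With the replicate number as a block the adjusted p was 0.0795 on all arrays and 0.0459 on the TAM arrays alone.

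Ndrg1, a stress-responsive gene widely used as a marker of hypoxia (probe at mm9 chr15:66761057-66761116), had levels of 2.84, 2.80 and 1.39 in PECs. Its levels were 4.39, 4.05 and 5.00 in the F4/80high subset and 4.48, 5.07 and 5.47 in the F4/80low subset. No TAM array reached down to the PECs, of which replicate 3 was the lowest. The log2 difference from PECs was 2.13 in F4/80high TAMs (SE 0.43, adjusted p = 0.00274) and 2.66 in F4/80low TAMs (adjusted p = 0.000951), and the subsets overlapped (0.53, adjusted p = 0.395). With slide as a block the first was 1.64 (adjusted p = 0.0683) and no longer passed, while in slide 1 alone the same 1.64 passed (adjusted p = 0.0397).

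Adm encodes adrenomedullin, a secreted vasodilator peptide and a classical HIF target (probe at mm9 chr7:117773088-117773147). It was well above background on 0 of 3 PEC arrays, 3 of 3 F4/80high arrays and 1 of 3 F4/80low arrays. Adm thus met the filter through the F4/80high group alone, where it was highest. Its calls against that group are not independent of the filter. Its measured levels were -4.60, -3.06 and -4.46 in PECs, -1.00, -1.35 and -0.83 in the F4/80high subset and -2.57, -2.76 and -1.99 in the F4/80low subset, with no overlap between any groups. Against PECs, F4/80high TAMs were at least 2.82-fold higher (fit 2.98, SE 0.40, adjusted p = 0.000239); this bound sets the PEC arrays at the lowest signal of any probe well above background where that exceeded their own. For F4/80low TAMs against PECs, where both groups had arrays below background, the fit gave 1.60 (adjusted p = 0.00854) and no fold is given. With quantile normalization that fit gave 1.09 (adjusted p = 0.0538), and the authors' deposited table gave a difference of 0.18 by the same fit (adjusted p = 0.184). F4/80low TAMs, measured above background on that 1 array only, were lower than F4/80high TAMs by the fit (-1.38, adjusted p = 0.0256). That last call was lost without F4/80high replicate 1 or 3 or F4/80low replicate 1 or 2 (adjusted p from 0.0621 to 0.0794).

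Bnip3 and Ero1l rose by smaller amounts. Bnip3, a mitochondrial protein that promotes mitophagy and cell death (probe at mm9 chr7:146082760-146082819), had levels of 3.27, 3.12 and 3.52 in PECs, 4.50, 4.31 and 3.48 in the F4/80high subset and 4.29, 4.39 and 4.41 in the F4/80low subset. F4/80high replicate 3 lay within the PEC range, and the F4/80low arrays lay above it. The differences from PECs were 0.80 (SE 0.26, adjusted p = 0.0279) and 1.06 (adjusted p = 0.00824). A second probe gave 0.62 in F4/80high TAMs, which did not pass (adjusted p = 0.0664), and 0.91 in F4/80low TAMs. Leaving out PEC replicate 1 or 2 or F4/80high replicate 1 or 2 ended the first call (adjusted p from 0.061 to 0.0982), and within slide 1 neither passed (0.83, adjusted p = 0.16, and 1.09, adjusted p = 0.0873).

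Ero1l (now Ero1a), an oxidase that forms disulfide bonds in the endoplasmic reticulum (probe at mm9 chr14:45904192-45904251), had levels of -1.52, -0.41 and -0.64 in PECs and 0.28, 0.20 and 0.13 in F4/80high TAMs. In F4/80low TAMs they were 0.39, -0.77 and -0.24, which overlapped the PECs. Only the first difference passed, at 1.06 (SE 0.34, adjusted p = 0.027), against 0.65 in F4/80low TAMs (adjusted p = 0.141), and the subsets did not differ past the threshold (-0.41, adjusted p = 0.402). The call was lost without PEC replicate 1 or any 1 of the F4/80high replicates (adjusted p from 0.054 to 0.0808), and within slide 1 the difference was 1.72 (adjusted p = 0.0212).

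Of the 14 oxygen sensing and hypoxia genes, 3 were higher and 1 was lower in F4/80low than in F4/80high TAMs. Those are 21.4% and 7.14%, beside 14.0% and 18.6% of all genes, and the median log2 difference over the 14 was 0.05. The higher genes were Kdm3a, Pdk1 and Egln3, and the lower gene was Adm. Kdm3a, a histone H3 lysine demethylase and HIF target (probe at mm9 chr6:71539112-71539171), had levels of 1.92, 2.17 and 2.03 in PECs, 1.63, 1.41 and 1.24 in the F4/80high subset and 2.56, 3.53 and 2.64 in the F4/80low subset. The groups did not overlap, and F4/80low replicate 2 was the highest. F4/80low TAMs exceeded F4/80high TAMs by 1.49 (SE 0.26, adjusted p = 0.00245), or 2.80-fold. The difference of F4/80low TAMs from PECs was 0.87 (adjusted p = 0.0208) and that of F4/80high TAMs was -0.62 (adjusted p = 0.0734). Without PEC replicate 1 or 3 the 0.87 lost its call (adjusted p from 0.0543 to 0.0578), as it did within slide 1 (0.99, adjusted p = 0.125).

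Pdk1, a kinase that inhibits pyruvate dehydrogenase and so holds pyruvate back from the mitochondria (probe at mm9 chr2:71739688-71739747), had levels of 0.07, -0.50 and 0.13 in PECs. They were -0.17, -0.07 and -1.06 in the F4/80high subset and 0.97, 0.78 and 0.55 in the F4/80low subset. The F4/80low arrays stood above all others, while PECs and F4/80high TAMs overlapped. F4/80low TAMs were 1.21 above F4/80high TAMs (SE 0.29, adjusted p = 0.0119), which became 0.89 (adjusted p = 0.0582) under median scaling. Their difference from PECs of 0.87 (adjusted p = 0.0322) was lost without PEC replicate 2 or F4/80low replicate 1 or 2 (adjusted p from 0.0711 to 0.115) and within slide 1 (0.70, adjusted p = 0.257).

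Of the 3 listed oxygen sensing genes, Egln3 differed between the subsets, and Hif1a and Egln1 did not pass in any comparison. Egln3 is the prolyl hydroxylase PHD3, itself a HIF target (probe at mm9 chr12:55280953-55281012). Its levels were -2.00, -1.95 and -2.13 in PECs, -2.69, -2.40 and -3.79 in the F4/80high subset and -0.27, -1.08 and -1.31 in the F4/80low subset, with no overlap. It was well above background on all PEC and F4/80low arrays and on 0 of 3 F4/80high arrays. F4/80low TAMs were at least 2.67-fold higher than F4/80high TAMs (fit 2.07, SE 0.37, adjusted p = 0.00283) and 1.14 above PECs on the log2 scale (adjusted p = 0.0298). F4/80high TAMs were at least 1.21-fold lower than PECs (fit -0.93), with an adjusted p of 0.0613, which did not pass. With normexp background correction the difference between the subsets was 0.52 (adjusted p = 0.0163).

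The F4/80low array with the most neutrophil marker signal, replicate 1, was an extreme of the 9 arrays for members in both directions. Its levels were the highest for Egln3, Pdk1, Slc16a3, Ddit4, Ero1l, Gpi1, Gapdh and Eno1, for Gapdh by a narrow margin. They were the lowest for Slc2a1, Hk2, P4ha1, P4ha2 and Egln1. How often this array was an extreme over all genes was not counted, and the part of neutrophils was not tested. Without that array the F4/80low TAMs kept their calls over F4/80high TAMs for Egln3 (1.76, adjusted p = 0.00762), Pdk1 (1.10, adjusted p = 0.0358) and Kdm3a (1.66, adjusted p = 0.00255). The difference of Egln3 from PECs was then 0.83 (adjusted p = 0.0906) and did not pass. That call was also lost without any 1 of the PEC replicates (adjusted p of 0.06 or more) and within slide 1 (1.11, adjusted p = 0.215).

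**Figure D2:**
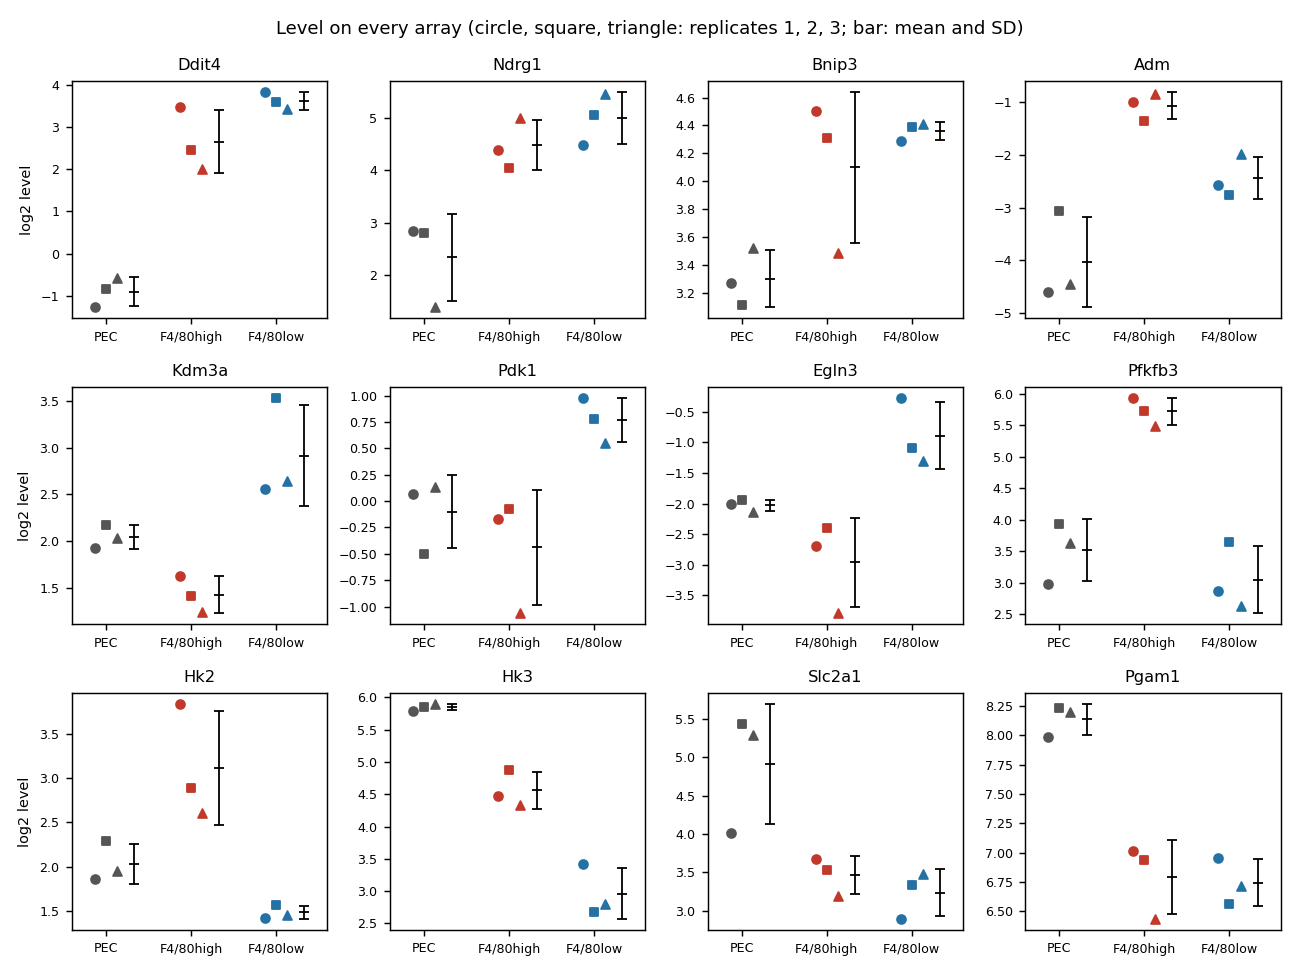
The log2 level of 12 members that passed the threshold, by group, with circles, squares and triangles for replicates 1, 2 and 3 and a bar for the group mean with its SD. Ddit4, Ndrg1 and Adm are above the PECs in both TAM subsets, Pfkfb3 and Hk2 are high in F4/80high TAMs, Kdm3a, Pdk1 and Egln3 are high in F4/80low TAMs, and Hk3 falls from PECs to F4/80high to F4/80low.

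Hif1a, which encodes a regulated HIF alpha subunit, had levels of 1.52, 2.34 and 2.06 in PECs, 2.56, 2.56 and 2.38 in the F4/80high subset and 2.14, 1.89 and 1.51 in the F4/80low subset. Although the F4/80high arrays lay above all others, the differences did not pass: 0.53 from PECs (SE 0.24, adjusted p = 0.0946), -0.12 for F4/80low TAMs from PECs (adjusted p = 0.688) and -0.65 between the subsets (adjusted p = 0.0682). With the replicate block the last did not pass on all arrays (adjusted p = 0.0881) and passed narrowly on the TAM arrays alone (adjusted p = 0.0494). Within slide 1 the first was 0.98 (adjusted p = 0.0442), and it passed with slide as a block on all arrays (adjusted p = 0.0284). Egln1, the main prolyl hydroxylase PHD2, was above background on 3 PEC, 1 F4/80high and 0 F4/80low arrays. Its F4/80low level was at least 1.48-fold lower than in PECs by the bound, but the fit did not pass (adjusted p = 0.252). Another alpha subunit, Epas1, and another prolyl hydroxylase, Egln2, are not members but HIF pathway relatives. Epas1 was higher in F4/80high TAMs than in PECs (0.54, adjusted p = 0.0199) and did not pass in F4/80low TAMs (0.28, adjusted p = 0.172). Egln2 was lower than in PECs in both subsets (-0.62, adjusted p = 0.0465, and -0.68, adjusted p = 0.0334). Ankrd37, P4ha1, P4ha2 (collagen prolyl hydroxylases) and Higd1a (a mitochondrial inner membrane protein) did not pass in any comparison; P4ha2 was the most variable, from -1.40 to 0.64 within PECs.

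The Hilpda transcript, encoding a lipid droplet protein that inhibits lipolysis, was measured by a probe whose name in the files is an older clone name and whose accession RefSeq assigns to Hilpda. It falls outside the naming rule and was added after its values were seen. Its levels were 3.80, 5.37 and 4.62 in PECs, 3.70, 3.03 and 2.94 in the F4/80high subset and 3.61, 3.89 and 3.63 in the F4/80low subset, so PEC replicate 1 lay inside the F4/80low range. F4/80high TAMs were lower than PECs (-1.37, SE 0.37, adjusted p = 0.0117). F4/80low TAMs did not pass (-0.89, adjusted p = 0.0693), and within slide 1 the first difference was -0.58 (adjusted p = 0.246).

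At glucose entry, the listed transporter Slc2a1 was lower in both TAM subsets and the hexokinases went different ways. The transporters Slc2a3 and Slc2a6, which are not members, were not called lower in either subset and are given with the relatives below. Slc2a1 encodes GLUT1, the main basal glucose transporter (probe at mm9 chr4:118809864-118809923). Its levels were 4.01, 5.44 and 5.30 in PECs, 3.67, 3.53 and 3.19 in the F4/80high subset and 2.89, 3.33 and 3.48 in the F4/80low subset. All TAM arrays lay below all PEC arrays, but PEC replicate 1 lay much nearer to them than the other two. The differences from PECs were -1.45 (SE 0.36, adjusted p = 0.0082) and -1.68 (adjusted p = 0.00432), or 2.73- and 3.21-fold lower, and the subsets differed by -0.23 (adjusted p = 0.667). Within slide 1, where PEC replicate 1 is the only control, they were -0.54 (adjusted p = 0.243) and -0.78 (adjusted p = 0.122), and neither passed. Nor did they pass with slide as a block on all arrays (adjusted p = 0.192 and 0.0842).

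Hexokinases phosphorylate glucose, which keeps it in the cell. Hk2, the inducible isozyme and a HIF target (probe at mm9 chr6:82675056-82675115), had levels of 1.86, 2.29 and 1.95 in PECs, 3.85, 2.89 and 2.61 in the F4/80high subset and 1.42, 1.57 and 1.46 in the F4/80low subset. The 3 groups did not overlap. F4/80high TAMs were above PECs by 1.08 (SE 0.30, adjusted p = 0.0126) and F4/80low TAMs were below F4/80high TAMs by the fit of -1.64 (adjusted p = 0.00282), a 3.11-fold lower level. F4/80low TAMs against PECs did not pass (-0.55, adjusted p = 0.146). Under median scaling the first had an adjusted p of 0.0576, and within slide 1 it was 1.26 (adjusted p = 0.0781).

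Hk3, an isozyme of blood-forming cells (probe at mm9 chr13:55107900-55107959), had levels of 5.80, 5.85 and 5.90 in PECs, 4.47, 4.88 and 4.33 in the F4/80high subset and 3.41, 2.67 and 2.80 in the F4/80low subset. The groups lay apart in that order. The differences from PECs were -1.29 (SE 0.23, adjusted p = 0.00138) and -2.89 (adjusted p = 1.64e-05), and F4/80low TAMs were 3.03-fold lower than F4/80high TAMs (-1.60, adjusted p = 0.000914). All 3 calls held under every alternative run for them. Hk1, the broadly expressed isozyme, ranged from 4.16 to 4.99 and did not pass in any comparison.

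Among the preparatory steps, Pfkfb3 stood out by its size in F4/80high TAMs. Pfkfb3 makes fructose 2,6-bisphosphate, the strongest activator of phosphofructokinase (probe at mm9 chr2:11393453-11393512). Its levels were 2.98, 3.94 and 3.64 in PECs, 5.93, 5.73 and 5.50 in the F4/80high subset and 2.86, 3.64 and 2.63 in the F4/80low subset. The F4/80high arrays lay above all others, and PECs overlapped F4/80low TAMs. F4/80high TAMs were 4.59-fold above PECs (2.20, SE 0.32, adjusted p = 0.000388), and F4/80low TAMs were 6.38-fold below F4/80high TAMs (-2.67, adjusted p = 0.000332). A second probe of the gene gave 2.16 (adjusted p = 0.000261) and -1.69 (adjusted p = 0.00235) for these. For F4/80low TAMs against PECs the probes had opposite signs, -0.47 and 0.48, and neither passed.

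Pfkm, the muscle-type phosphofructokinase, had a lower level in TAMs (probe at mm9 chr15:97962713-97962772). It measured 0.48, 0.02 and 0.24 in PECs, -1.43, -1.03 and -1.99 in the F4/80high subset and -0.41, -0.21 and -1.21 in the F4/80low subset. Its signal was well above background on all PEC and F4/80low arrays but on 2 of 3 F4/80high arrays. All TAM arrays were below the PECs, and the subsets overlapped through F4/80low replicate 3. The difference from PECs was -1.73 in F4/80high TAMs (SE 0.32, adjusted p = 0.00158) and -0.85 in F4/80low TAMs (adjusted p = 0.0466). The latter was lost without any 1 PEC replicate, F4/80high replicate 1 or F4/80low replicate 1 or 3 (adjusted p from 0.0549 to 0.146). Within slide 1 it was -1.08 (adjusted p = 0.149), no smaller than on all arrays, and did not pass. The subsets differed by 0.87 (adjusted p = 0.0618), and with the replicate number as a block this passed (adjusted p = 0.0393).

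The liver and platelet isozymes of phosphofructokinase, Pfkl and Pfkp, did not pass, at -0.86 (adjusted p = 0.0916) and -0.27 (adjusted p = 0.375) for F4/80high TAMs minus PECs. Aldoa, which cleaves fructose 1,6-bisphosphate, ranged from 9.81 to 10.17 in PECs, 8.92 to 9.59 in F4/80high TAMs and 9.90 to 10.01 in F4/80low TAMs. It was lower in F4/80high TAMs than in PECs (-0.69, SE 0.20, adjusted p = 0.0186) and higher in F4/80low than in F4/80high TAMs (0.64, adjusted p = 0.0401). The first call was lost without PEC replicate 2 or 3 or F4/80high replicate 3 (adjusted p from 0.0549 to 0.0698) and within slide 1 (-0.49, adjusted p = 0.268). The second was lost with the replicate number as a block (adjusted p = 0.0679) and without any 1 array other than PEC replicate 1 and F4/80high replicate 1 (adjusted p from 0.0552 to 0.127). Gpi1 and Tpi1, the glucose phosphate and triose phosphate isomerases, did not pass in any comparison.

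In the payoff steps, phosphoglycerate mutase was the exception among enzymes that differed little. Pgam1 moves the phosphate of 3-phosphoglycerate (probe at mm9 chr19:41992898-41992957). Its levels were 7.99, 8.23 and 8.20 in PECs, 7.01, 6.93 and 6.43 in the F4/80high subset and 6.96, 6.56 and 6.71 in the F4/80low subset. Every TAM array was below every PEC array, and the subsets overlapped. The differences from PECs were -1.34 (SE 0.20, adjusted p = 0.000503) and -1.39 (adjusted p = 0.000509), 2.54- and 2.63-fold lower. They were -1.19 (adjusted p = 0.0276) and -1.24 (adjusted p = 0.0279) within slide 1.

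The other payoff enzymes had differences from PECs between -0.49 and 0.18. Gapdh, the dehydrogenase of the pathway, differed by 0.18 (SE 0.17, adjusted p = 0.399) and 0.16 (adjusted p = 0.452), and none of its 7 probes passed in any comparison. Eno1 (enolase) differed by -0.02 (SE 0.19) and 0.04, and Pkm2 (now Pkm, pyruvate kinase) by -0.41 (SE 0.25) and -0.49. Pgk1 (phosphoglycerate kinase) differed by 0.16 (SE 0.20) and 0.14, but its only probe is placed by the files on chromosome 3 while the gene lies on chromosome X. Another locus may therefore give its signal, and a Gapdh probe is likewise placed on chromosome 8. Ldha (lactate dehydrogenase) differed by -0.39 (SE 0.19, adjusted p = 0.122) and -0.11 (adjusted p = 0.661), and Slc16a3 (the lactate exporter MCT4) by 0.03 (SE 0.38) and 0.43. Of these 6 genes, 0 passed in any comparison, and 0 had an unadjusted limma p under 0.05. Under at least 1 alternative 4 of them passed, for example Gapdh at 0.40 in F4/80low TAMs (adjusted p = 0.0403, percentile over probes above background on all arrays). In F4/80high TAMs Pgk1 passed at 0.61 with slide as a block (adjusted p = 0.0444), Pkm2 at -0.72 with quantile normalization (adjusted p = 0.0202) and Ldha at -0.58 with normexp (adjusted p = 0.00508).

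**Figure D3:**
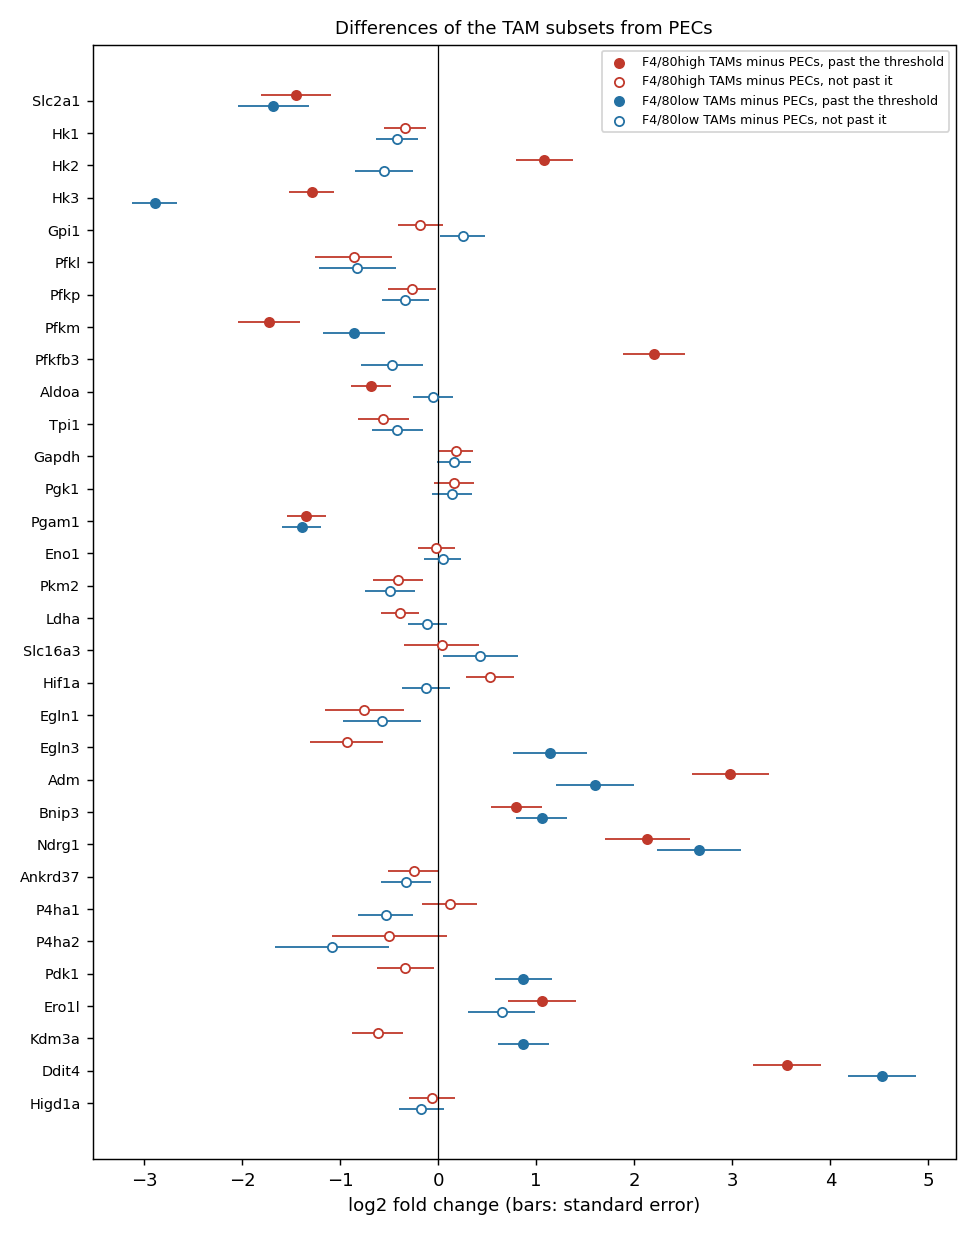
The log2 fold change of each member from PECs with its standard error as bars, in red for F4/80high and in blue for F4/80low TAMs, filled where the adjusted p was under 0.05. The hypoxia-induced genes Ddit4, Ndrg1, Adm and Bnip3 lie right of 0 in both colours, Slc2a1, Hk3, Pfkm and Pgam1 lie left in both, and Pfkfb3 and Hk2 lie right in red only.

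**Figure D4:**
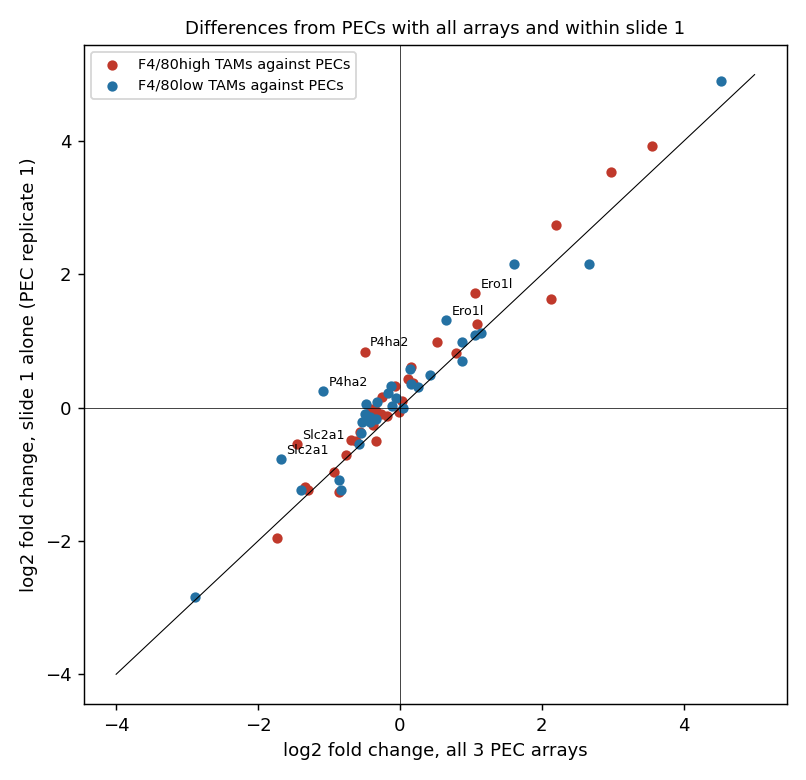
The log2 fold change of each member from PECs with all 3 PEC arrays (x axis) and within slide 1, where PEC replicate 1 is the only control (y axis), with the line of equality. Most members lie near the line; the named points, Slc2a1, P4ha2 and Ero1l, moved by more than the others, Slc2a1 from -1.45 to -0.54 and from -1.68 to -0.78.

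Relatives of these genes were read from lists of the same pathways. Their counts stand beside the shares of all genes given above: 25.0% higher and 28.0% lower, 22.7% and 29.2%, and 14.0% and 18.6% for the comparisons in the same order. Of 12 further isozymes and regulators of glycolysis tested out of 20 listed, 2 were higher and 6 lower in F4/80high TAMs and 5 were higher and 3 lower in F4/80low TAMs against PECs, and 5 were higher and 2 lower in F4/80low than in F4/80high TAMs. Those are 16.7% and 50%, 41.7% and 25%, and 41.7% and 16.7% of the list. Aldoc, the brain-type aldolase, was higher in F4/80low TAMs than in PECs (2.80, SE 0.31, adjusted p = 0.000107) and than in F4/80high TAMs (1.97, adjusted p = 0.00137). Eno3, the muscle enolase, was also higher there (2.25, SE 0.18, adjusted p = 1.64e-05, and 1.99, adjusted p = 8.75e-05). Eno2, the neuronal enolase, was lower than in PECs in both subsets (-2.21 and -2.84, SE 0.34, adjusted p = 0.000555 and 0.000162). Slc2a6, a lysosomal sugar transporter, was higher than in PECs in F4/80high TAMs (2.48, SE 0.27, adjusted p = 6.65e-05) and in F4/80low TAMs (1.62, adjusted p = 0.00104). Slc2a3, another glucose transporter, was above background on 3 of 3 F4/80low arrays but on 1 of 3 arrays of each other group. It thus met the filter through the F4/80low group alone. Its levels were 0.16, -3.85 and -4.75 in PECs and 3.53, 2.71 and 2.25 in F4/80low TAMs. PEC replicate 1, on the slide of the TAM arrays, lay far nearer to them than the other PEC arrays. The Slc2a3 fit used arrays below background, so no fold is given. That fit gave 5.64 for F4/80low TAMs against PECs (SE 1.30, adjusted p = 0.00612) and 5.31 against F4/80high TAMs (adjusted p = 0.0127). For F4/80high TAMs against PECs it gave 0.33 (adjusted p = 0.847).

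Of 26 other HIF pathway genes tested out of 32 listed, 8 were higher and 11 lower in F4/80high TAMs, 7 higher and 10 lower in F4/80low TAMs, and 6 higher and 8 lower between the subsets. Those are 30.8% and 42.3%, 26.9% and 38.5%, and 23.1% and 30.8% of the list. Pfkfb4, Slc2a3 and Aldoc stand both here and in the list of further glycolysis isozymes, so their calls enter both counts. Cited2, which competes with HIF for its coactivator, was higher in both subsets than in PECs (3.03, SE 0.23, adjusted p = 8.14e-06, and 3.08, adjusted p = 1.06e-05). Bnip3l, the relative of Bnip3, was lower in both subsets (-3.67, SE 0.18, adjusted p = 9.01e-07, and -2.14, adjusted p = 2.41e-05). Angptl4, a secreted inhibitor of lipoprotein lipase, was lower in both subsets (-2.22 and -3.39, SE 0.28), and so was Plin2, a lipid droplet coat protein (-2.21, SE 0.19, adjusted p = 1.58e-05, and -3.24, adjusted p = 2.89e-06). Cxcr4, a chemokine receptor also carried by neutrophils, was higher in F4/80low than in F4/80high TAMs (1.77, SE 0.29, adjusted p = 0.00175), where the neutrophil markers were high; their part was not tested. Vegfa, the angiogenic growth factor, was higher there too (1.69, SE 0.44, adjusted p = 0.0159), though not without F4/80high replicate 3 or F4/80low replicate 2 (adjusted p from 0.0557 to 0.0565). Against PECs, Vegfa was lower in F4/80high TAMs (-1.45, adjusted p = 0.0198) and did not pass in F4/80low TAMs (0.24, adjusted p = 0.665). Its PEC levels were 0.36, 1.64 and 1.70, so PEC replicate 1 lay nearest to the F4/80high arrays.

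Routes that branch from glycolysis were counted in the same way. Of 8 pentose phosphate genes tested, 3 were lower (37.5%) and 0 higher in each subset against PECs, the 0 holding at an unadjusted limma p under 0.05. Taldo1 (transaldolase) was lower in both (-1.32 and -1.14, SE 0.19, adjusted p = 0.000401 and 0.00113). Of 14 glycogen genes, 8 were lower (57.1%) and 1 higher in F4/80high TAMs and 7 lower (50%) and 1 higher in F4/80low TAMs. Ugp2, which makes UDP-glucose, was lower in both (-2.09 and -2.46, SE 0.26), and Pygb, a glycogen phosphorylase, was lower in F4/80low TAMs (-2.00, SE 0.26). Of 12 genes of pyruvate entry into mitochondria, 6 were lower (50%) and 1 higher in F4/80high TAMs, 3 lower (25%) and 2 higher in F4/80low TAMs, and 5 higher and 1 lower in F4/80low than in F4/80high TAMs. Pdp1, the phosphatase that opposes the Pdk kinases, was lower in both (-2.76 and -3.14, SE 0.21), as was the kinase Pdk2 (-2.37 and -1.63, SE 0.34). Pdha1 and Dlat, subunits of pyruvate dehydrogenase, were 1.04 (SE 0.16) and 0.96 (SE 0.19) higher in F4/80low than in F4/80high TAMs (adjusted p = 0.00135 and 0.00439). Under median scaling the values were 0.73 and 0.64 and neither passed (adjusted p = 0.0601 and 0.114).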

How the data were processed

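Total RNA of 9 mouse macrophage samples, 3 in each of 3 groups per the labels, was hybridised to 1-colour arrays. The deposited per-array files hold each spot's linear intensity as written by Agilent Feature Extraction 10.5.1.1, per the file headers, with background already subtracted. The deposited value table holds log2 values, read so from the values,, for part of the probes; its normalization is not given in the sources used here, and it served as an alternative. Intensities were taken to log2, less the 75th percentile of their array (intensities of 53.5 to 97.3). Outlier spots (103 to 307 per array) were left out, and spots of a probe were averaged. Kept were 21199 probes that stood well above background throughout some group; a gene with several was represented by its brightest. Names came from RefSeq by accession for 26413 probes, of which 3093 changed name; members were taken by the files' names. limma 3.58.1 in R 4.3.3 fitted all 9 arrays together, with two-sided tests and the Benjamini-Hochberg adjustment per comparison at 0.05; the median standard error was 0.236, and precision is limited by the few arrays. The fit was tested on simulated data.

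Members passing the threshold with a log2 difference of at least 1 are given array by array, others by ranges and counts. From each related list, at most 4 genes above background in both groups are named per comparison. Slc2a3 falls outside this rule and was added as a further glucose transporter. Epas1 and Egln2 also fall outside it and were added as a further HIF alpha subunit and prolyl hydroxylase. Some genes that this rule names are not reported here. The members and lists were chosen with earlier results of these data known. Residuals of F4/80high and F4/80low arrays with the same replicate number correlated at 0.234, 0.171 and 0.134 across genes, and those with different numbers at most at 0.0225. PEC with TAM arrays of the same number correlated between -0.0962 and 0.091, and those of different numbers between -0.11 and 0.133. The numbers were taken to pair the TAM subsets only. This pairing is uncertain, as the 0.133 of an unpaired couple is close to the 0.134 of replicate 3. Slide and scan coincide and were used as a block. Alternatives were normexp (offset 50), quantile, median and other percentile scaling, no filter, the mean of probes, only the groups compared, blocks for slide and replicate, slide 1 alone, the deposited table and leaving out each array. Exon annotation of probes was not used here, and probe positions are in mouse build mm9.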

Additional observations from a re-analysis of the deposited data

Results flagged for a closer look

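Groups of 3 arrays were not tested for single far values. For 8 members the difference from PECs was not the same in the TAM subsets, by limma's test of the F4/80low level minus the F4/80high level. This log2 value was -1.64 for Hk2, -1.60 for Hk3, -2.67 for Pfkfb3 and -1.38 for Adm, all of which were lower in F4/80low TAMs. It was 2.07 for Egln3, 1.49 for Kdm3a, 1.21 for Pdk1 and 0.64 for Aldoa, which were higher there. Adm was above background on 1 of 3 F4/80low arrays and met the filter through the F4/80high arrays alone. The Aldoa difference did not pass with the replicate number as a block, on all arrays (adjusted p = 0.0679) or on the TAM arrays alone (adjusted p = 0.0756). On the F4/80low arrays 11 of 11 neutrophil markers were above background, and their part in these differences was not tested.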

How the results depend on the processing

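Of 31 member differences past the threshold, 15 passed under every alternative run for them and 16 were lost under at least 1; 27 of 65 that did not pass were gained under at least 1, and none changed sign while called. Members higher in F4/80high TAMs than in PECs (7) became 4 under median scaling. Members lower there (5) became 10 with normexp, 8 with quantile normalization and 3 with slide as a block or slide 1 alone. Members higher in F4/80low TAMs than in PECs (7) became 3 under median scaling, 4 with slide as a block and 3 in slide 1 alone. Members lower there (4) became 10 with normexp, 13 under median scaling and 2 with slide as a block or slide 1 alone. Members higher in F4/80low than in F4/80high TAMs (4) became 2 under median scaling and 8 with the percentile over probes above background on all arrays; no alternative moved the 4 lower ones by over 1.5 times. The cause was not tested. Leaving out 1 array gave 5 to 7 higher and 4 to 6 lower, 5 to 7 and 3 to 5, and 3 to 5 and 3 to 5 in these comparisons. With the replicate block on all arrays, the counts were 7 and 6, 7 and 4, and 4 and 4; with the TAM arrays alone and the block, chosen after the data were seen, they were 5 and 5. Hilpda and the related genes that the naming rule picks were rerun under the same alternatives, also after the data were seen. Alternatives for Slc2a3, Epas1 and Egln2 are not given. The deposited table lacked some members. Against PECs, it gave log2 differences of 0.65 and 0.18 for Adm, 2.56 and 3.62 for Ddit4 and -0.85 and -0.49 for Pfkm in F4/80high and F4/80low TAMs, and normexp gave 0.80 and 0.47, 2.38 and 3.17, and -0.68 and -0.38. Between the subsets normexp gave -0.33 for Adm and 0.52 for Egln3. All were smaller in size than the values reported. Dim spots limit Adm, Egln1, Egln3 and, in F4/80high TAMs, Pfkm.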
